A study of Mus musculus with 8 samples.

Results

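The genes described here are those of the cytosolic ribosomal proteins, chosen by symbol alone: every row named Rpl or Rps with a number, with or without a closing letter a, l, x or y and a digit, together with Rplp0, Rplp1, Rplp2 and Rpsa. The table of counts held 86 such rows among 28239, of which 51 belong to the large and 35 to the small ribosomal subunit. With at least 2 CPM (a gene's counts scaled to a common library total) in at least 4 libraries, 83 of the 86 could be tested, among 12700 genes in all. The 3 that could not were Rpl3l, Rpl10l and Rpl39l. In the GENCODE annotation of GRCm38 each of the 86 symbols matched 1 gene, and 4 of them, Rps4l, Rpl6l, Rps12l1 and Rps3a2, are annotated as pseudogenes. Rpl13 was not analysed here.

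To find how Alox15 bears on the regulatory T cell (Treg) program, naïve CD4+ T cells from spleens of wild type mice (WT) and of mice deficient in Alox15, which encodes a lipoxygenase, both labelled as of C57BL/6 background, were driven toward Tregs with IL-2, TGF-β and beads carrying antibodies to CD3 and CD28, and RNA was profiled on day 2. There were 4 libraries labelled Alox15-/- and 4 labelled WT. Both groups received the same culture, and the mice used in the study were female and male and 10 to 12 weeks old. WT mice came from Charles River and Alox15-/- mice from The Jackson Laboratory, so that genotype and supplier cannot be told apart. The libraries labelled Alox15-/- are described as from 4 mice, but the labels tie no library to a mouse and give no number of WT mice, so p-values measure the spread between these libraries. Libraries were made by massive analysis of cDNA ends (MACE), which sequences the 3′ part of each mRNA. Levels are given as CPM scaled by edgeR's trimmed mean of M values (TMM).

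The ribosome reads mRNA and joins amino acids into protein. Its small subunit holds the mRNA and checks each codon, while its large subunit forms the peptide bond and lets the new chain out through a tunnel. Ribosomal protein mRNAs are among the most abundant in growing cells, and in most of them a run of pyrimidines at the 5′ end, the TOP motif, couples translation to nutrient and growth factor signals through mTORC1. T cells that leave rest after receptor stimulation make ribosomes in large numbers before they divide.

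The targeted gene went against the labels. Alox15 (chr11:70344152-70352031, minus strand) was at 70.5, 69.2, 63.7 and 65.3 CPM in the libraries labelled Alox15-/- and at 1.88, 2.56, 7.77 and 9.02 CPM in the WT libraries, a log2 fold change of 3.65 (SE 0.299, adjusted p = 1.08e-05, edgeR quasi-likelihood test). Which part of the gene was deleted, and whether the 3′ tags fall outside it, is not given in the sources used here, so the genotype is used below only as a label. An exchange of the group labels was not tested, and it would turn the sign of every difference given here. Total counts were between 3723151 and 9538962 per library, and WT replicate 3 was the deepest. Of all genes tested, 158 passed an adjusted p of 0.05, which is 1.24%.

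Markers of cells other than αβ T cells moved with the label. Over the whole lists, genes too low to test included, the mean level was higher in the libraries labelled Alox15-/- for 8 of 9 erythroid markers, 6 of 7 of mast cells and basophils, 6 of 6 of eosinophils, 8 of 8 of myeloid cells and 5 of 6 of natural killer and γδ T cells, and for 1 of 5 of B cells. Trdc, Tcrg-C1 and Tcrg-C4 on the list before last mark γδ T cells. These counts are a description with no test. The summed level of the 9 erythroid markers was 908 to 3492 CPM there and 35.0 to 123 CPM in WT libraries, and that of the 8 myeloid markers was 37.0 to 293 CPM against 5.25 to 11.5 CPM. Mast cell and basophil markers summed to 139 to 349 CPM against 57.5 to 82.5 CPM, eosinophil markers to 20.6 to 76.8 CPM against 1.25 to 6.72 CPM, and natural killer and γδ T cell markers to 75.2 to 134 CPM against 21.6 to 38.9 CPM. Of the 6 T cell, 6 Treg and 2 CD8 T cell markers, all tested, 0 passed the threshold in edgeR, and 2, 0 and 2 had an unadjusted p under 0.05, or 33.3%, 0% and 100% beside 7.84% of all genes tested. Those under 0.05 were Cd3g (log2 fold change 0.31), Cd4 (-0.32), Cd8a (-0.69) and Cd8b1 (-0.65). B cell markers summed to 5.552 to 7.565 CPM in the libraries labelled Alox15-/- and 8.31 to 19.27 CPM in WT. No marker on these lists had a count of 0 in all libraries. The Treg markers, Foxp3 among them, summed to 1698 to 1849 CPM in the libraries labelled Alox15-/- and 1784 to 1979 CPM in WT. Foxp3 itself had a log2 fold change of -0.42 (adjusted p = 0.65), or -0.11 without WT replicate 3. The part these cells play in the ribosomal protein counts was not tested. In bulk RNA, fewer cells of a type and less RNA per cell cannot be told apart.

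No ribosomal protein gene passed the test between the groups. Of the 83 tested, 0 passed an adjusted p of 0.05, in edgeR, in DESeq2 and in limma-voom alike, beside 1.24% of all genes. At an unadjusted p under 0.05 there were 3, or 3.61%, beside 7.84% of all genes tested. The smallest adjusted p was 0.514, for Rps15. Standard errors of the log2 fold change were between 0.0889 and 0.344 with a median of 0.106. For 81 of the 83 genes the 95% confidence interval lay within 0.5 on the log2 scale on either side of 0.

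Most of the differences had the same sign. The log2 fold change was above 0 for 72 of the 83 and below 0 for 11, with a median of 0.085, beside a median of -0.007 over all genes tested, of which 48.2% were above 0. The large subunit had 40 of 48 above 0 with a median of 0.087, and the small subunit 32 of 35 with a median of 0.081. The median depended on single libraries. Without WT replicate 3 it was 0.015 and 45 of 83 were above 0, without Alox15-/- replicate 3 it was 0.046 with 60 above 0, and without Alox15-/- replicate 1 it was 0.128 with 74 above 0.

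**Figure D1:**
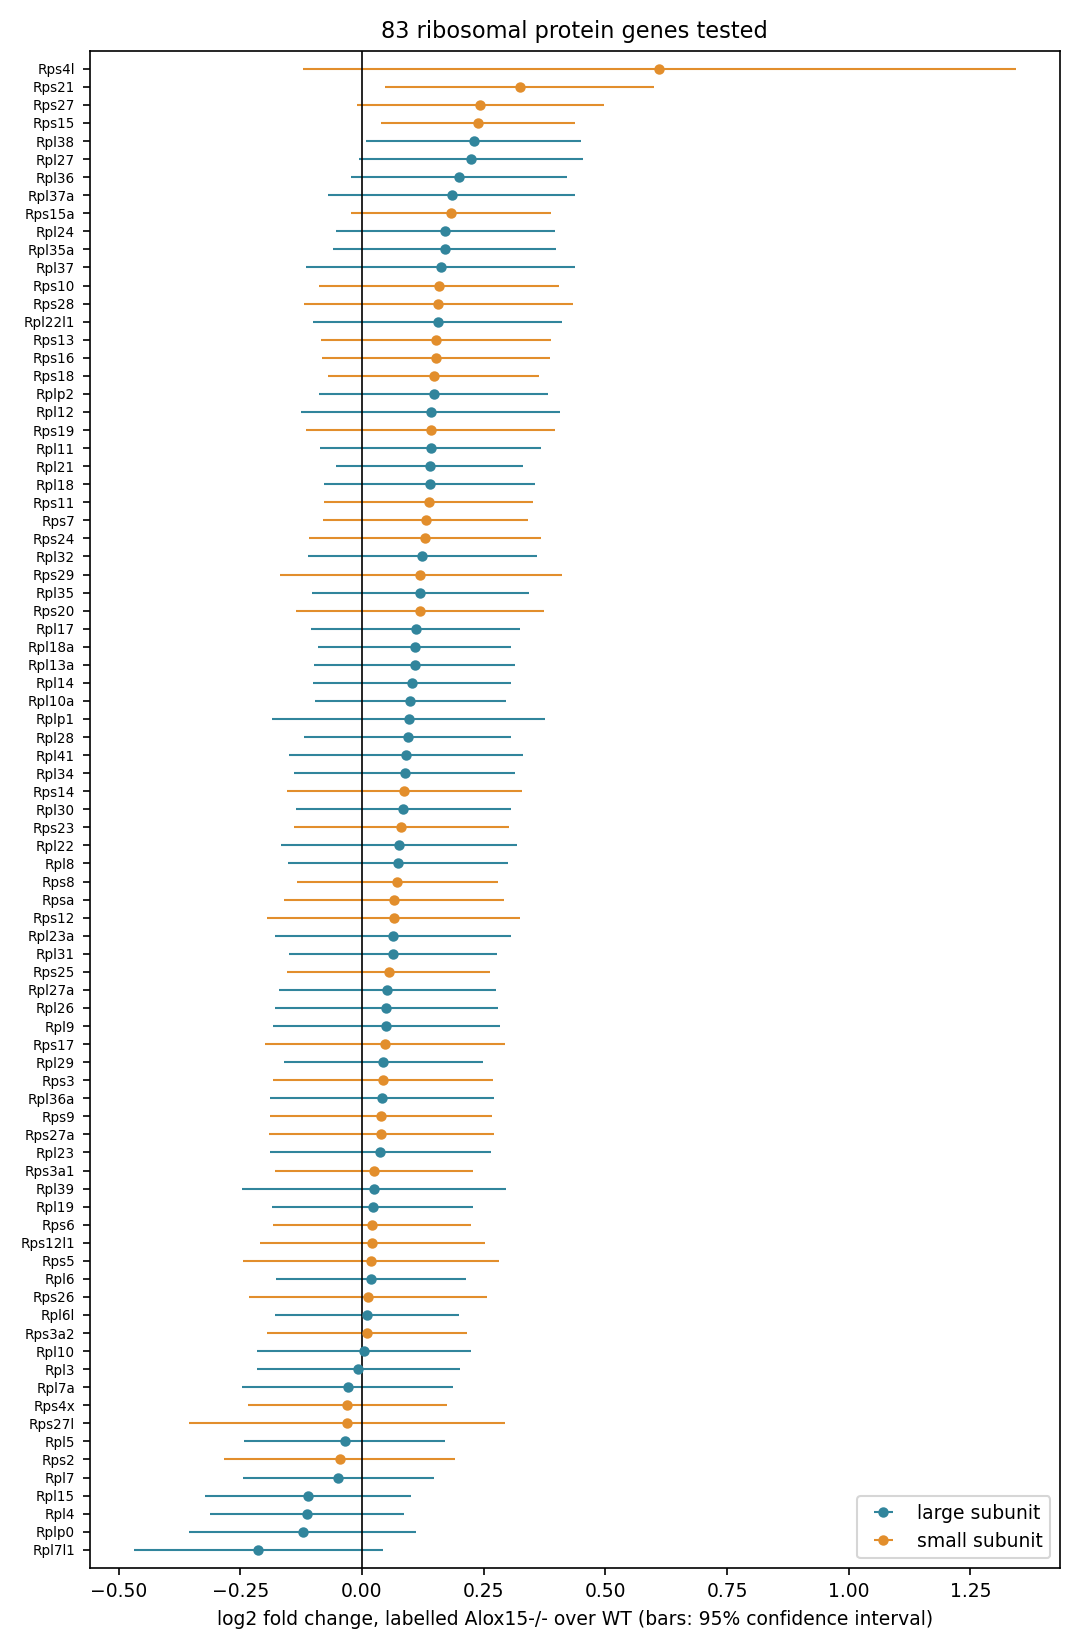
Log2 fold change of the 83 tested ribosomal protein genes, libraries labelled Alox15-/- over WT (4 libraries each), with bars for the 95% confidence interval. The points run from -0.21 for Rpl7l1 to 0.61 for Rps4l, and the interval lies above 0 only for Rps21, Rps15 and Rpl38, none of which passed after adjustment.

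Single libraries also set the summed share of counts. Ribosomal protein genes took 7.77%, 7.86%, 8.71% and 8.39% of the counts in the libraries labelled Alox15-/- and 8.29%, 8.04%, 6.97% and 8.31% in the WT libraries. The groups overlapped, and the WT value of 6.97% in replicate 3 was the lowest of all 8. The means were 8.18% ± 0.45 (SD, n = 4) and 7.90% ± 0.634 (SD, n = 4), a difference of 0.277 percentage points that lay within the spread of the libraries. Without WT replicate 3 the WT mean was 8.22% ± 0.155 (SD, n = 3) and the difference -0.033 percentage points, and without Alox15-/- replicate 3 the difference was 0.0997.

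**Figure D2:**
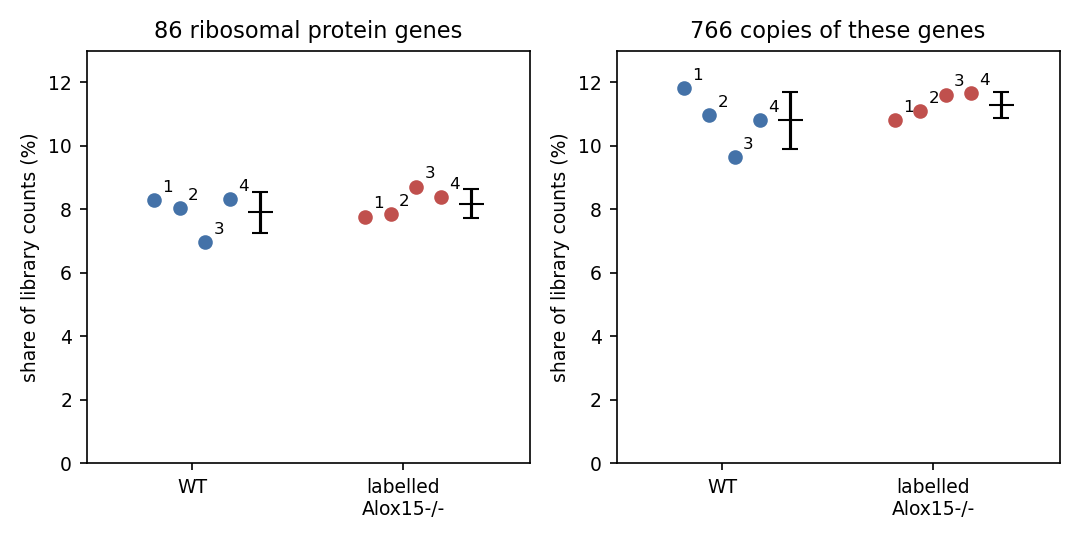
Share of each library's counts on the 86 ribosomal protein genes (left) and on 766 copies of them elsewhere in the genome (right), with the replicate number beside each point and the mean and SD of each group. The 2 groups overlap in both, and WT replicate 3 is lowest in both, at 6.97% and 9.64%.

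Among genes of the small subunit, Rps15 and Rps21 had the smallest unadjusted p. Rps15 (chr10:80292453-80294114, plus strand), which sits in the head of the small subunit near the decoding center, was at 1164, 1276, 1319 and 1321 CPM in the libraries labelled Alox15-/- and 1167, 1121, 978 and 1041 CPM in the WT libraries. The groups overlapped only through the lowest of the former and the highest of the latter. Its log2 fold change was 0.24 (SE 0.0936, unadjusted p = 0.0225, adjusted p = 0.51). Rps21 (chr2:180257377-180258445, plus strand), a small protein of the same subunit, was at 286, 309, 362 and 338 CPM against 261, 283, 193 and 300 CPM. WT replicate 3 gave the low value here, and the log2 fold change of 0.32 (SE 0.129, adjusted p = 0.52) was 0.21 without it. Rps27, a zinc finger protein, was at 389, 397, 507 and 477 CPM against 422, 392, 307 and 375 CPM, and had a log2 fold change of 0.24 (adjusted p = 0.67).

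The other small subunit genes chosen for their known roles lay close to 0. Rps6, the substrate of the S6 kinases downstream of mTORC1, was at 543 to 579 CPM in the libraries labelled Alox15-/- and 487 to 626 CPM in WT, with a log2 fold change of 0.021 (95% confidence interval -0.18 to 0.22). Rps27a, which is made as a fusion with ubiquitin, was at 539 to 697 CPM and 508 to 649 CPM, with a log2 fold change of 0.04. Both were below 0 without WT replicate 3, at -0.029 and -0.022. Rpsa, also known as the laminin receptor precursor, was at 2364, 2429, 2846 and 2384 CPM against 2458, 2332, 2070 and 2720 CPM, a log2 fold change of 0.065, or 0.0061 without WT replicate 3. Rps29, among the shortest of these proteins, had 1 of the 3 largest spreads within groups, with an SD of log2 CPM of 0.245. It was at 559, 559, 768 and 720 CPM against 634, 626, 460 and 680 CPM, a log2 fold change of 0.12, or 0.016 without WT replicate 3.

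In the large subunit, Rpl38 (chr11:114668524-114672331, plus strand), known for its part in translating Hox mRNAs in the embryo, was at 223, 239, 278 and 233 CPM in the libraries labelled Alox15-/- and at 209, 213, 182 and 226 CPM in WT. Its log2 fold change was 0.23 (SE 0.104, unadjusted p = 0.0423, adjusted p = 0.62), and the groups overlapped by the highest WT library. Rpl36 was the single member whose groups did not overlap, 1 of 83 or 1.2%, beside 5.25% of all genes tested. It was at 592, 600, 639 and 582 CPM against 560, 572, 425 and 544 CPM, with a log2 fold change of 0.2 (adjusted p = 0.69). Without the WT library at 425 CPM the value was 0.12.

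The 4 lowest log2 fold changes of all belonged to the large subunit, to Rpl7l1, Rplp0, Rpl4 and Rpl15. Rpl4 (chr9:64173375-64178666, plus strand), whose long loop reaches into the wall of the exit tunnel, was at 3498, 3220, 3568 and 3763 CPM against 3732, 3610, 3715 and 4134 CPM in WT. The log2 fold change was -0.11 (SE 0.0937, adjusted p = 0.84), and it was -0.12 without WT replicate 3, and that library differed from the mean of the other WT libraries by -0.04 on the log2(CPM + 1) scale. Rpl15 (chr14:18267823-18271391, minus strand), a core protein of the large subunit, was at 365, 382, 438 and 396 CPM against 431, 462, 371 and 444 CPM, with a log2 fold change of -0.11 (95% confidence interval -0.32 to 0.1, adjusted p = 0.84). Rpl7 was at 775 to 811 CPM against 758 to 926 CPM, a log2 fold change of -0.049. The values without WT replicate 3 were -0.17 for Rpl15 and -0.083 for Rpl7.

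The proteins that join 5S rRNA, and that can hold back the p53 ligase MDM2 when ribosome assembly fails, did not pass the threshold. Rpl5 was at 790 to 844 CPM in the libraries labelled Alox15-/- and 707 to 907 CPM in WT, a log2 fold change of -0.035 (95% confidence interval -0.24 to 0.17). Rpl11 was at 294 to 358 CPM and 255 to 336 CPM, a log2 fold change of 0.14 (95% confidence interval -0.086 to 0.37). The interval of each held the value of the other, and without WT replicate 3 the values were -0.1 and 0.071.

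The stalk of the large subunit, which calls elongation factors to the ribosome, is built from Rplp0 at the base and pairs of Rplp1 and Rplp2. Rplp0 was at 3653, 3696, 4460 and 3645 CPM against 4473, 4208, 3560 and 4578 CPM. In the libraries labelled Alox15-/- replicate 3 stood above the others and in WT replicate 3 stood below them, and the log2 fold change was -0.12 (SE 0.109, adjusted p = 0.84). Rplp1 was at 3819, 3867, 4849 and 4144 CPM against 4262, 3952, 2899 and 4489 CPM, and Rplp2 at 860, 928, 1094 and 976 CPM against 937, 903, 714 and 931 CPM. Their log2 fold changes were 0.097 and 0.15, and neither passed the threshold. Without WT replicate 3 the values were -0.018 for Rplp1, 0.067 for Rplp2 and -0.19 for Rplp0, so that the sign for Rplp1 turned with 1 library.

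Levels differed far more between genes than between groups. On the CPM scale the highest means over all libraries were those of Rplp1, Rplp0 and Rpl4, with group means of 4170, 3864 and 3512 CPM in the libraries labelled Alox15-/- and 3900, 4205 and 3798 CPM in WT. The lowest among tested genes were Rps4l, Rpl35a and Rpl30, with 3.39, 150 and 157 CPM in the libraries labelled Alox15-/- and 2.08, 133 and 148 CPM in WT. MACE reads come from the 3′ part of an mRNA, so their number need not rise with its length. Levels divided by coding length, which favors short genes, are given beside CPM only as a description. On the CPM scale Rpl41 stood below Rplp1, with group means of 2354 CPM in the libraries labelled Alox15-/- and 2212 CPM in WT. Per kilobase of coding sequence, the mean over all libraries was 29270 CPM for Rpl41, the smallest ribosomal protein with 78 coding bases, 11700 for Rplp1, 8425 for Rps20 and 7586 for Rpl39. At the other end were Rpl7l1 with 224, Rpl7a with 294 and Rps7 with 411 CPM per kilobase. Which of a gene and its near-identical copies a read was counted for is not known, as described further on, so these levels are those of the gene's row alone.

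Members with a paralogue among the 86 were read side by side. Rpl7l1 (chr17:46773907-46782672, minus strand), a relative of Rpl7, had the lowest log2 fold change of all, -0.21 (SE 0.12, unadjusted p = 0.0959, adjusted p = 0.73). It was at 149, 145, 157 and 162 CPM against 173, 169, 148 and 224 CPM, so that the WT library at 224 CPM, replicate 4, stood apart from 7 others. Without it the value was -0.082, and that of Rpl15 was lower, at -0.089. Rpl22, which αβ T cells need for their development, and its paralogue Rpl22l1 were at 768 to 934 and 209 to 287 CPM in the libraries labelled Alox15-/- and at 645 to 885 and 186 to 261 CPM in WT, with log2 fold changes of 0.076 and 0.16. These were -0.018 for Rpl22 and 0.15 for Rpl22l1 without WT replicate 3. Rps27l, a paralogue of Rps27 that p53 can induce, had the largest spread among well expressed members, with an SD of log2 CPM of 0.295. It was at 400, 346, 446 and 421 CPM against 439, 428, 273 and 509 CPM, a log2 fold change of -0.031, which was -0.18 without WT replicate 3 and 0.089 without WT replicate 4.

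Paralogues known from muscle or testis were at or near 0. Rpl3l, a striated muscle form of Rpl3, had 0 to 4 counts per library, Rpl10l, a testis form of Rpl10, had 0 or 1, and Rpl39l had 0 to 14. Their partners were abundant, with means in WT of 730 CPM for Rpl3, 669 CPM for Rpl10 and 1174 CPM for Rpl39. In the libraries labelled Alox15-/- the means were 726, 670 and 1193 CPM, and the 3 log2 fold changes lay between -0.008 and 0.024, all below 0 without WT replicate 3, at -0.03, -0.054 and -0.071. Of the rows annotated as pseudogenes, Rps4l had the highest log2 fold change of all members, 0.61, with 8 to 30 counts per library and a 95% confidence interval from -0.12 to 1.34. It was at 2.65, 4.61, 3.97 and 2.3 CPM against 2.35, 1.28, 3.03 and 1.68 CPM, far below Rps4x with 1642 CPM. Rpl6l and Rps12l1 were abundant, with 488 and 591 CPM in the libraries labelled Alox15-/- and 485 and 583 CPM in WT, beside 691 and 683 CPM for Rpl6 and 350 and 335 CPM for Rps12. Log2 fold changes of these 4 rows were between 0.01 and 0.065, and between -0.058 and -0.02 without WT replicate 3.

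Alox15 lies on chromosome 11, and 2 members lie within 20 Mb of it. Rpl26, 1.44 Mb away, whose protein can bind p53 mRNA, was at 1111, 1154, 1456 and 1276 CPM against 1276, 1238, 1048 and 1265 CPM, a log2 fold change of 0.05. Rpl23a, 7.84 Mb away, was at 210 to 254 CPM against 179 to 246 CPM, a log2 fold change of 0.064. Neither passed the threshold, and without WT replicate 3 both were below 0, at -0.0071 and -0.024.

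The members moved together from library to library. In WT replicate 3, 82 of 83 were below the mean of the other 3 WT libraries, with a median difference of -0.3 on the log2(CPM + 1) scale, while over all genes tested the median was 0.012 and 48.4% were below. This library held the lowest of the 8 values for 75 members. Libraries labelled Alox15-/- were also split: in replicate 1, 81 of 83 were below the mean of the other 3 libraries of that group, with a median difference of -0.161, and in replicate 3, 80 of 83 were above it, with a median of 0.166. Over all genes tested, 50.1% were below in Alox15-/- replicate 1 (median -0.001) and 49.1% in Alox15-/- replicate 3 (median 0.005). Mitochondrial ribosomal protein genes, of which 79 were tested, had median differences of -0.172 and 0.159 in these libraries, near those of the members. In WT replicate 3 their median difference was -0.162. Mitochondrially encoded transcripts took 3.12% of the counts in that library and 3.14% to 3.41% in the other WT libraries.

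**Figure D3:**
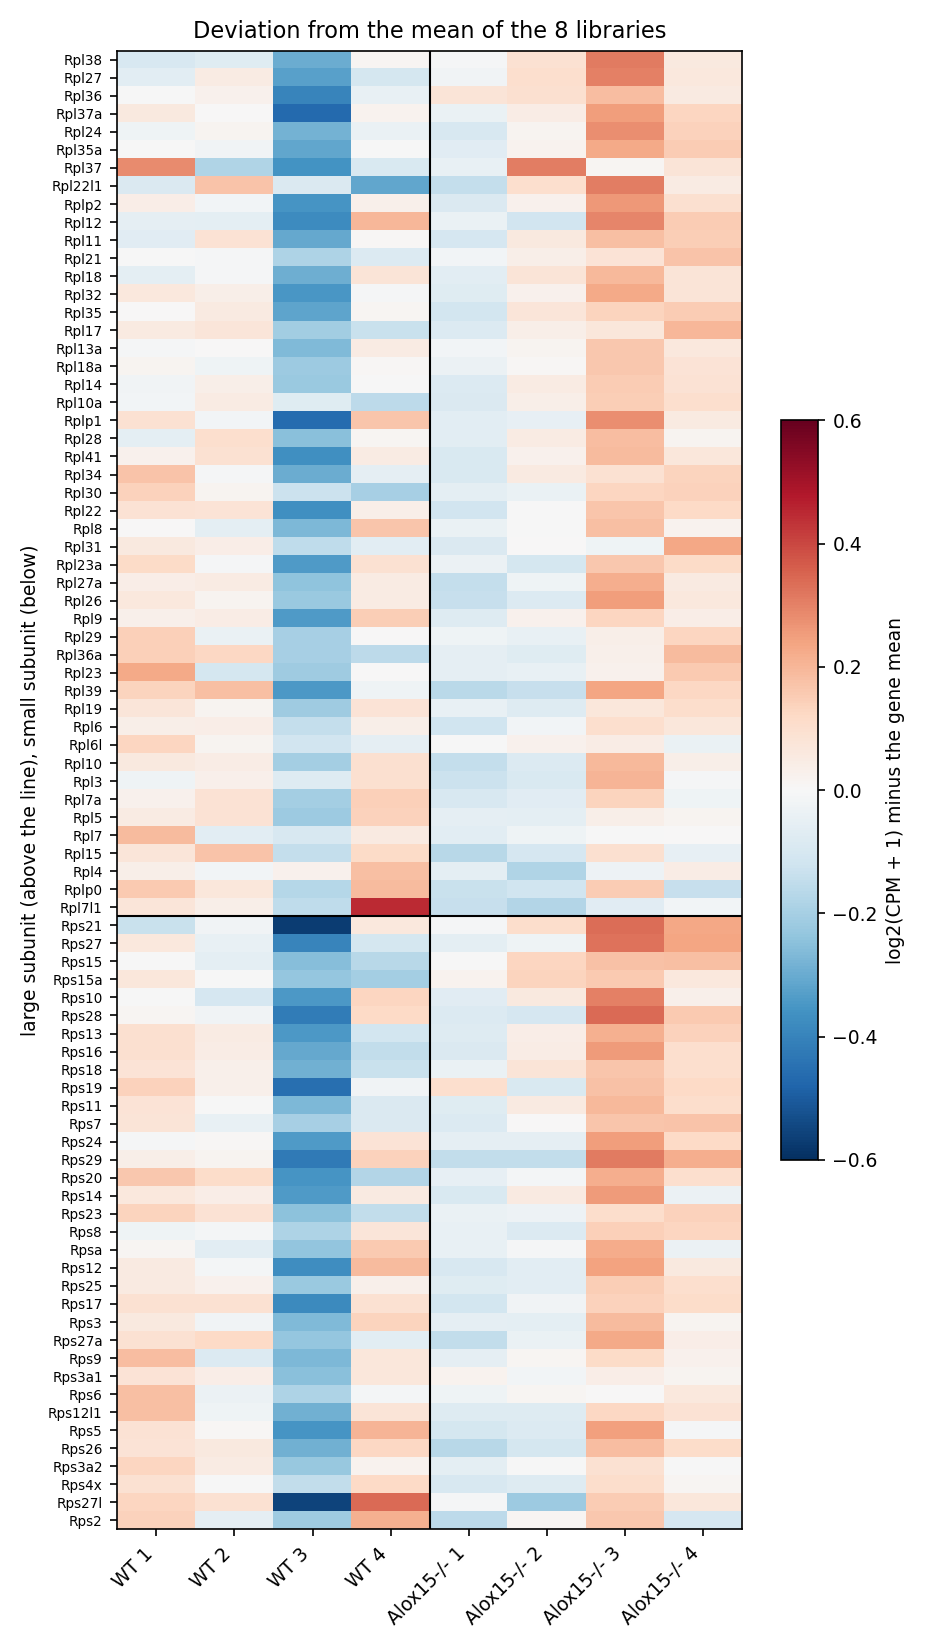
Deviation of log2(CPM + 1) from the mean of the 8 libraries for 82 tested ribosomal protein genes (Rps4l, with few counts, is left out), large subunit above the line and small subunit below, WT libraries on the left. The column of WT replicate 3 is blue for nearly every gene and that of Alox15-/- replicate 3 is red for most.

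What set WT replicate 3 apart ran with coding length. Over the 79 coding members tested, Spearman's rho between coding length and the difference of WT replicate 3 from the other WT libraries was 0.44, and over the 10419 other coding genes tested it was 0.294. These genes share their libraries, so the correlations are a description. Among the other coding genes the median difference was -0.181 up to 300 bases of coding sequence (229 genes), -0.1 from there to 600 bases (1161 genes), -0.028 to 900 bases (1436 genes) and 0.085 beyond (7593 genes). Members stood lower than other genes in each class: the medians were -0.449 (10 members), -0.298 (47 members), -0.271 (19 members) and -0.111 (3 members), and the first and the last 2 classes hold under 20 members each. Short coding sequence and low level in this library thus went together also outside the ribosomal proteins. The part of coding length in the low level of the members in this library was not tested.

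**Figure D4:**
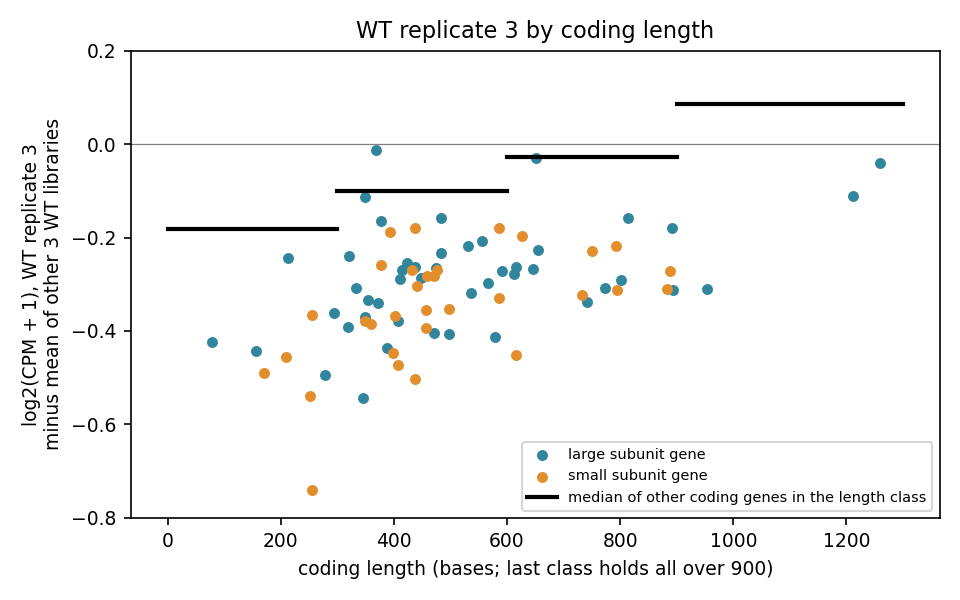
Difference of WT replicate 3 from the mean of the other 3 WT libraries, on the log2(CPM + 1) scale, against coding length in bases for the 79 coding ribosomal protein genes tested (points), with the median of the other coding genes in 4 length classes (black lines). The lines rise from -0.181 in the shortest class to 0.085 in the longest, and nearly all points lie below the line of their class.

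The log2 fold change between the groups also ran with coding length. Spearman's rho was -0.543 over the 79 coding members and -0.162 over the other coding genes, and without WT replicate 3 it was -0.428 and -0.0235. The median log2 fold change of the 10 members with the shortest coding sequence was 0.16, or 0.069 without that library, and that of the 19 members between 600 and 900 bases was 0.019, or -0.043 without it.

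RefSeq gives windows of 250 bases before to 50 bases after a gene's start in GRCm38.p6 for 62 of the 86 symbols. Since the members moved together, these starts are shown from 40 bases before to 30 bases from the start on, for the 4 highest well expressed members by log2 fold change and the 4 lowest, with the longest run of C and T within 20 bases of the start in capitals:
Rpl38: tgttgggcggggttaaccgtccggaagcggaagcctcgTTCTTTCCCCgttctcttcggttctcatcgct
Rps15: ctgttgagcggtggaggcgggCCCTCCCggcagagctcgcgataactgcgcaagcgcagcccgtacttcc
Rps21: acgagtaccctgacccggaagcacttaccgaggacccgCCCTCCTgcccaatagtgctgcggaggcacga
Rps27: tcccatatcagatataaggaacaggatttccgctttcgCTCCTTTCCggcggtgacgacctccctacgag
Rpl15: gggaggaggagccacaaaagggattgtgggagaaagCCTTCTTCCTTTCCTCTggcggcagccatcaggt
Rplp0: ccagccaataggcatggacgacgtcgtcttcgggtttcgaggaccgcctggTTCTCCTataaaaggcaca
Rpl4: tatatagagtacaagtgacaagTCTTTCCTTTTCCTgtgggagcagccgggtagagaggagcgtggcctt
Rpl7l1: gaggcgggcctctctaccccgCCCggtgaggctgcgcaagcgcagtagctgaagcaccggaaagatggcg
They lie at chr11:114668540-114668609 (plus strand) for Rpl38, chr10:80292391-80292460 (plus) for Rps15, chr2:180257339-180257408 (plus) for Rps21, chr3:90213619-90213688 (minus) for Rps27, chr14:18270957-18271026 (minus) for Rpl15, chr5:115559427-115559496 (plus) for Rplp0, chr9:64173347-64173416 (plus) for Rpl4 and chr17:46782627-46782696 (minus) for Rpl7l1. Where RefSeq lists several starts for a gene, as for Rps21, the first was used. The run was 17 bases long for Rpl15 and 14 for Rpl4, which were among the lowest log2 fold changes, and 7 for Rplp0 and 3 for Rpl7l1, which were also among the lowest. It was 10 for Rpl38, 9 for Rps27 and 7 for Rps21 and Rps15, which were among the highest, so that its length did not order these 8 genes.

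A run of at least 8 C or T within 20 bases of the start stood in 27 of 62 member windows, or 43.5%, beside 15.1% of the windows of genes tested and 15.9% of all windows. A C at the start itself stood in 33.9%, 14.7% and 16.2%. The motif CTTCCG, read on both strands and overlapping such runs at times, was in 67.7% of member windows, 34.2% of those of genes tested and 17.2% of all, CTTTCC was in 48.4%, 26.1% and 26.3%, and TATAAA in 9.68%, 6.65% and 14.2%. The 27 tested members with such a run had a median log2 fold change of 0.088 and the 32 without it 0.085. A match in these windows is a description and not a site of binding.

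Ribosomal protein genes have left many processed copies in the mouse genome, and in this table the copies held more counts than the genes. A match of at least 90% identity over at least 200 bases, or a symbol ending in ps and a number, gave 766 rows as copies, 747 of them annotated as pseudogenes and 17 as protein coding. They took 10.82%, 11.09%, 11.62% and 11.66% of the counts in the libraries labelled Alox15-/- and 11.82%, 10.97%, 9.64% and 10.81% in WT. In 67 cases a copy's row held more counts than its parent's. Wdr89, named here after its value was seen, held the highest count of any copy, 117811 over all libraries, and its transcript matches Rplp2 at 99.3% over 447 bases. Reads that match gene and copy alike cannot be told apart by these counts, so values of single rows are uncertain by that much. Summed over 79 families of gene and copies, the gene's own row held 7.47% of the family's counts for Rpl23a, 8.49% for Rpl35a and for Rps12, and a median of 32.9%.

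Where each read was counted for 1 row only, the sum of a gene and its copies does not depend on which row that was. How reads that match several places were counted is not given, so the sums can still depend on it. Of 79 such families 0 passed the threshold, in edgeR and in DESeq2 alike, beside 1.25% of all features so fitted. At an unadjusted p under 0.05 there were 3 of 79, beside 7.84% of all genes tested in the fit without summing. These were Rps15 with a log2 fold change of 0.24 (SE 0.0974, adjusted p = 0.53), Rps21 with 0.27 (SE 0.114, adjusted p = 0.56) and Rpl38 with 0.25 (SE 0.113, adjusted p = 0.63). The same genes came first without the copies. Family values ran from -0.2 to 0.27 with a median of 0.11, and 69 of 79 were above 0. Without WT replicate 3 the median was 0.019 with 48 of 79 above 0, and without Alox15-/- replicate 3 it was 0.067 with 60. The share that the gene's row held moved between the group means by at most 1.84 percentage points in any family other than Rpl15, where it moved by 2.49, from 25.5% in WT to 23.0%.

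Of the 511 copies tested, 7 passed the threshold, or 1.37% beside 1.24% of all genes, and all 7 were copies of Rpl15. Of the 497 tested copies of other genes 0 passed in edgeR, in DESeq2 or in limma-voom, and 7, or 1.41%, had an unadjusted p under 0.05, beside 7.84% of all genes tested. Rpl15 has 19 copies in the table, of which 14 were tested. Gm14094 (chr2:133199611-133200220, plus strand) was at 66.9, 64.9, 71.1 and 72.1 CPM in the libraries labelled Alox15-/- and 1.41, 1.6, 2.72 and 4.62 CPM in WT, a log2 fold change of 4.77 (SE 0.223, adjusted p = 1.57e-08). Gm8420 (chr1:51940664-51941261, minus strand) was at 207, 208, 210 and 217 CPM against 3.14, 10.4, 9.28 and 13.6 CPM, a log2 fold change of 4.55 (SE 0.245, adjusted p = 5.74e-08). In both rows the lowest library labelled Alox15-/- lay far above the highest WT library. Gm5292 (chr5:43943903-43944482, minus strand) was at 46.8, 46.1, 37.3 and 44.7 CPM against 11.1, 12.5, 9.58 and 10.7 CPM, and Gm8885 (chr1:72087857-72088454, plus strand) at 73.4, 55.9, 63.7 and 61.9 CPM against 38.9, 43.2, 31.7 and 39.5 CPM, with log2 fold changes of 2.00 and 0.74.

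The 3 other copies past the threshold were lower in the libraries labelled Alox15-/-. Gm4294 (chr12:12023045-12023658, plus strand) was at 151, 138, 156 and 147 CPM against 226, 214, 173 and 205 CPM, Gm10020 (chr15:52477617-52478228, minus strand) at 134, 123, 145 and 137 CPM against 216, 211, 167 and 189 CPM, and Rpl15-ps2 (chr9:72060937-72061549, plus strand) at 101, 107, 128 and 109 CPM against 189, 180, 138 and 169 CPM. Their log2 fold changes were -0.47, -0.54 and -0.6, with adjusted p = 0.035, 0.016 and 0.015 (edgeR). The groups did not overlap in any of the 3, nor in 5.25% of all genes tested and 9 of the 511 copies tested. This rests on the same values as the test and adds nothing to it. These 3 calls depended on single libraries. All 3 were lost without Alox15-/- replicate 1, without Alox15-/- replicate 2, without WT replicate 1 or without WT replicate 2, where 4 copies remained past the threshold, and all 3 remained without WT replicate 3.

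**Figure D5:**
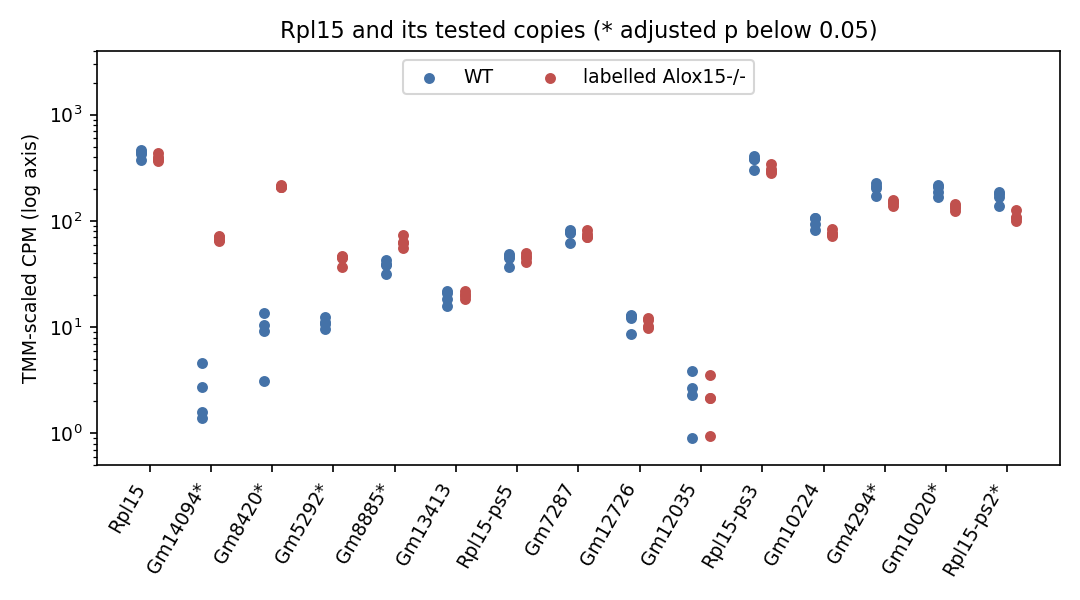
Scaled CPM of Rpl15 and of its 14 tested copies in each of the 8 libraries on a log axis, copies ordered by log2 fold change, stars for an adjusted p below 0.05. Gm14094 and Gm8420 lie above 60 CPM in all libraries labelled Alox15-/- and below 14 CPM in all WT libraries, while the row of Rpl15 itself overlaps.

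The copies that differed in opposite directions also differed in sequence. The 4 higher copies were 90.9% to 96.6% identical to the Rpl15 mRNA and the 3 lower ones 98.7% to 99.8%, while the 7 copies that did not pass ranged from 90.8% to 100%. To show this, coding bases 381 to 480 of Rpl15 (GENCODE, counted from 1 at the A of the start codon), the 100 bases up to the substitution that every higher and no lower copy carried, are set beside the aligned bases of the copies, with every base that differs from Rpl15 in capitals:
Rpl15: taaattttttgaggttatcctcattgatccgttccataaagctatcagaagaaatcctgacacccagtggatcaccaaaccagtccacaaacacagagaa
Gm14094: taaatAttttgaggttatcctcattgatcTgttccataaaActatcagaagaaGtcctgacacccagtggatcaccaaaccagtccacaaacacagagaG
Gm8420: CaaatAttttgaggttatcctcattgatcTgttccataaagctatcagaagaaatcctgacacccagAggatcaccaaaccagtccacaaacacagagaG
Gm5292: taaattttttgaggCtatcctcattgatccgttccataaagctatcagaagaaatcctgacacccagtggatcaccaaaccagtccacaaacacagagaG
Gm8885: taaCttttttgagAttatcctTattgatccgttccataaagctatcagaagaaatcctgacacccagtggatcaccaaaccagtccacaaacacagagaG
Gm4294: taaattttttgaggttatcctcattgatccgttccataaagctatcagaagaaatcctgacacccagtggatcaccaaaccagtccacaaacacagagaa
Gm10020: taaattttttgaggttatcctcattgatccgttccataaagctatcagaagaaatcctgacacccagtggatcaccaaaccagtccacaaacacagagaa
Rpl15-ps2: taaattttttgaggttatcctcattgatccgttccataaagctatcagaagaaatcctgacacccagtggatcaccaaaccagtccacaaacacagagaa
Rpl15-ps3: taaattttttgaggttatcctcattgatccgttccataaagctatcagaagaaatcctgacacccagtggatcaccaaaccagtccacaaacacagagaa
Over these 100 bases the higher copies carried 5, 5, 2 and 4 differences in the order shown, and the 3 lower copies carried 0. The stretch was chosen after the values were seen. The 7 copies that did not pass carried 0 to 9 differences in it, and over the whole coding sequence the lower copies carried 1, 2 and 8 substitutions and the higher ones 15 to 28. Rpl15-ps3, whose row did not pass (log2 fold change -0.26, adjusted p = 0.56), is identical to Rpl15 over all 615 coding bases, yet held 367.9 CPM in WT beside 427 CPM for Rpl15. The substitution A480G (Rpl15 base first) stood in 4 of 4 higher copies, 0 of 3 lower copies and 3 of 7 copies that did not pass, and T386A and C410T were shared by Gm14094 and Gm8420.

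Within the family the copies' shares differed between the groups while the sum did not pass the test. The 4 higher copies held 20.9% to 23.8% of the family's counts in the libraries labelled Alox15-/- and 3.08% to 3.98% in WT, and the 3 lower copies held 22.5% to 23.4% against 32.8% to 35.6%. The row of Rpl15, at 22.0% to 23.9% against 24.3% to 26.2%, and the 12 remaining copies, at 30.9% to 31.8% against 36.2% to 37.3%, also held lower shares, and shares of 1 sum must fall together where others in it rise. Together the higher copies were 326 CPM higher, at 387 against 61.0 CPM in the group means. The difference was -176 CPM for the 3 lower copies, -31.95 CPM for the row of Rpl15 and -80.0 CPM for the 12 remaining copies. The family as a whole was at 1662, 1646, 1840 and 1736 CPM against 1786, 1799, 1393 and 1709 CPM, a log2 fold change of 0.042 (95% confidence interval -0.18 to 0.26, adjusted p = 0.96). Its sign turned without WT replicate 3, at -0.034.

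Genes that work around the ribosome did not pass the threshold either. Fau, Rpl36al and Rack1, ribosomal proteins whose symbols lie outside the rule, had log2 fold changes of 0.17, 0.13 and -0.066, a median of 0.126 that was 0.074 without WT replicate 3 and 0.068 without Alox15-/- replicate 3. Elongation factors and other mRNAs of the TOP class had 12 of 14 below 0, a median of -0.072 (-0.127 without Alox15-/- replicate 3, -0.044 without WT replicate 1) and 0 past the threshold, and 3, or 21.4%, had an unadjusted p under 0.05, beside 7.84% of all genes tested. These were Eef2, which moves the ribosome along the mRNA, at 4041 against 4827 CPM (log2 fold change -0.26, adjusted p = 0.57), Pabpc1, the poly(A) binding protein, at 1693 against 2021 CPM (-0.26, adjusted p = 0.39), and Eif4b, an initiation factor, at 364 against 428 CPM (-0.23, adjusted p = 0.53). They were named after their values were seen, as were those that follow.

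Most ribosome assembly factors were below 0 as well. Of 33 factors for the small subunit, 33 were below 0 with a median of -0.13, and of 43 for the large subunit 34 were below 0 with a median of -0.082. In both lists 0 passed the threshold, in edgeR, DESeq2 and limma-voom alike, and unadjusted p was under 0.05 for 2 in each list, 6.06% and 4.65% beside 7.84% of all genes tested. These were Heatr1 and Utp18 (log2 fold changes -0.33 and -0.32) and Mak16 and Nop2 (both -0.25, or -0.155 for Mak16 without WT replicate 4). Without WT replicate 3 these medians were -0.133 and -0.092, and without WT replicate 4 they were -0.041 and -0.028, with 27 of 33 and 25 of 43 below 0. Factors of RNA polymerase I, which transcribes rRNA, had 9 of 15 below 0 and a median of -0.008 (0.048 without WT replicate 3, -0.094 without Alox15-/- replicate 1), and snoRNP and nucleolar proteins 8 of 15 and -0.028 (-0.078 without Alox15-/- replicate 4). The genes of the 5S and p53 route had 6 of 8 below 0 and a median of -0.045, which was -0.089 without WT replicate 3 and -0.008 without WT replicate 4, with 4 of 8 below 0. Of the regulators of TOP mRNAs and the S6 kinases, 13 of 15 were below 0 with a median of -0.149 (-0.099 without WT replicate 3), and 0 passed, with 2, or 13.3%, at an unadjusted p under 0.05. Larp1, which binds the TOP motif, was at 299 against 374 CPM (log2 fold change -0.32, adjusted p = 0.46, or -0.2 without WT replicate 3), and Rps6ka1 at 86.8 against 102 CPM (-0.23, adjusted p = 0.62). Mitochondrial ribosomal protein genes had 53 of 79 above 0 and a median of 0.034, -0.003 without WT replicate 3, -0.015 without Alox15-/- replicate 3 and 0.092 without Alox15-/- replicate 1, with 0 past the threshold. At an unadjusted p under 0.05 were Mrpl21 and Mrpl23 (log2 fold changes 0.28 and 0.28), 2.53% beside 7.84% of all genes tested.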

How the data were processed

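Libraries were sequenced by the authors with MACE-seq, and the labels name a small RNA kit where the study's methods name a MACE-seq kit. The submitters' processing notes name Bowtie, edgeR and GRCm38, while the counting tool, the treatment of strand, of duplicates and of reads that match several places is not given in the sources used here. The deposited values are raw counts per gene symbol, between 3723151 and 9538962 per library, and 0 columns were left unused. Groups were taken from the labels.

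A gene entered the fit when 4 or more libraries reached 2 CPM, which left 12700, fitted with edgeR 4.0.16 (TMM scaling, quasi-likelihood test, R 4.3.3), group as the only term, with Benjamini-Hochberg adjustment over all 12700 and a threshold of 0.05. Standard errors are the log2 fold change over the square root of F. DESeq2 1.42.0 and limma-voom (limma 3.58.1) were alternatives, beside other scalings and filters, a replicate block and leaving out each library. Differences of a library from its group used log2(CPM + 1).

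Copies were found with blastn 2.17.0 between GENCODE M21 transcripts (GRCm38), at 90% identity or more over at least 200 bases, or by symbol. Start windows came from RefSeq (GRCm38.p6). Genes were named by rank of log2 fold change (5 at each end), level and spread (3 each), non-overlap, paralogy, role, distance to Alox15 and, for copies and surrounding lists, the threshold. Members and lists were chosen with earlier results of these data known.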

Additional observations from a re-analysis of the deposited data

Results flagged for a closer look

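Over the named genes, Alox15 and the shares of counts on genes and on copies, 94 groups of 4 libraries were examined: the highest or lowest library was set against the others by Dixon's criterion, and 10 libraries' values stood out. Chance gives about 1 in 20 groups where these are independent. Here they share the same libraries, in which the members moved together, so the 10 cannot be set against that share. Where all other libraries of a group hold 0, as for Rpl3l and Rpl10l, any count stands out. WT replicate 3 was the low library for 5 genes: Rpl35a at 113 CPM beside 139 to 141 CPM in the other WT libraries, Rpl22 at 645 beside 852 to 885 CPM, Rpl6 at 621 beside 703 to 705 CPM, Rplp2 at 714 beside 903 to 937 CPM, and Rpl26 at 1050 beside 1240 to 1280 CPM. Alox15-/- replicate 3 was the high library for Rplp0, at 4460 beside 3650 to 3700 CPM, and for Rpsa, at 2850 beside 2360 to 2430 CPM. The remaining 3 rest on few counts: Rpl39l at 2.94 CPM in WT replicate 4 beside 0.48 to 0.807 CPM, Rpl3l at 0.144 CPM in Alox15-/- replicate 4 beside 0, and Rpl10l at 0.101 CPM in WT replicate 3 beside 0.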

How the results depend on the processing

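No ribosomal protein gene passed the threshold under any alternative run, alone or summed with copies, and the smallest adjusted p of a member over all of them was 0.271 (Rps21, no filter on low counts). Their median log2 fold change was 0.074 to 0.113 over the scalings and 0.015 to 0.128 when 1 library was left out, lowest without WT replicate 3. The number of copies past the threshold was 7, and 6 to 7 under other scalings, filters and tools, 4 to 7 when 1 library was left out, and 5 when copies had to be at least 95% identical, a limit chosen after seeing the data. Over all genes, 388 passed with no filter beside 158, and 86 to 172 when 1 library was left out (fewest without Alox15-/- replicate 2). Of 738 values of 41 named genes under alternatives, 675 kept direction and side of the threshold. A further 21, all of Gm4294, Gm10020 and Rpl15-ps2, kept direction and lost the threshold. The remaining 42 turned sign, in 17 ribosomal protein genes that passed the threshold under no alternative. Of these, 34 came from leaving out 1 library, where log2 fold changes ran from -0.059 to 0.053 for Rpl10, -0.017 to 0.128 for Rpl22, -0.024 to 0.115 for Rpl23a, -0.026 to 0.104 for Rpl26, -0.078 to 0.035 for Rpl3, -0.071 to 0.091 for Rpl39, -0.103 to 0.009 for Rpl5, -0.02 to 0.061 for Rpl6, -0.02 to 0.057 for Rpl6l, -0.083 to 0.011 for Rpl7, -0.018 to 0.174 for Rplp1, -0.032 to 0.145 for Rps12, -0.058 to 0.088 for Rps12l1, -0.028 to 0.095 for Rps27a, -0.181 to 0.089 for Rps27l, -0.077 to 0.009 for Rps4x and -0.029 to 0.089 for Rps6. The other 8 were Rpl10 (-0.017), Rpl6 (-0.003), Rpl6l (-0.011) and Rps6 (-0.0003) with no filter, Rpl3 with upper quartile scaling (0.021) and with scaling without the ribosomal protein genes (0.001), Rpl10 with library totals (-0.007) and Rps27l in limma-voom (0.005). The cause was not tested.

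Both groups are numbered 1 to 4, and same-numbered libraries correlated by 0.067, 0.18, -0.2 and -0.017 in their deviations from the group means. These 4 values cannot settle whether same-numbered libraries were handled together, which the labels do not say. With the replicate number as a block, 4 copies passed and 146 of all genes, and not every library correlated best with its own number. Counting sets the limit for Rpl3l, Rpl10l, Rpl39l and Rps4l, with at most 30 counts in a library.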
